A study of Mus musculus with 12 samples.

Results

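Contractile and actin cytoskeleton genes were examined in fibroblast-like synoviocytes of mice, which are cells of the joint lining. The set holds 37 genes, picked by name: smooth muscle actins and their thin filament partners, myosins, filament crosslinkers, adhesion and LIM domain proteins, and the transcription factors Srf and Myocd. All 37 were found among the 53341 genes of the expression table, and all 37 passed the filter that left 18139 genes, namely a level of 10 or more normalized counts in 3 or more of 12 libraries. The cells came from mice described only as SoxC, after a group of transcription factors (Sox4, Sox11 and Sox12). The study sequenced poly(A) RNA from 12 libraries in 4 groups of 3. Control cells received Ade5CMV-eGFP, an adenovirus carrying a green fluorescent protein. Knockout cells (SoxC_KO) received Ade5CMV-Cre, an adenovirus carrying Cre recombinase. Each kind was kept without TNF or given recombinant human TNF, an inflammatory cytokine, at 10 ng/mL for 16 h (control_TNF and SoxC_KO_TNF). Every group therefore carries an adenovirus, and no group without virus was analysed here. The sources used here name neither the alleles nor the stretch of each gene that Cre deletes. The labels also leave unsaid whether the 3 libraries of a group stem from different mice or dishes, so a p-value speaks only of spread among these libraries, which may be technical. The series asks how far the response to TNF depends on SOXC.

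Actin filaments and myosin II give fibroblasts tension. Phosphorylation of the myosin light chain by a kinase such as Mylk turns the motor on, tropomyosins, calponins and caldesmon set where it can bind, and vinculin, zyxin and filamins tie the filaments to adhesions and to each other. Many of these genes are known targets of serum response factor (Srf), which binds a short DNA element called the CArG box, and its coactivators include myocardin (Myocd) and the actin-sensing factors Mkl1 and Mkl2. In connective tissue, smooth muscle members such as Acta2, Tagln and Cnn1 mark the myofibroblast state.

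The CArG box is shown first because it is the element that links several of these genes. RefSeq promoter windows, 250 bases before to 50 after each start (GRCm38.p6), matched 33 of the 37 genes, with 42 windows in all. The table had no entry for Tagln, Myh11, Myocd and Actg2. A CArG box, searched on both strands, lay in the windows of 8 of 33 genes (24.2%): Fhl1, Fhl2, Myl9, Cnn2, Myl6, Vcl, Ldb3 and Srf. Of all 27025 genes with such windows, 1.81% held a match. The letters CATTCC, the core of the element bound by TEAD factors, were in windows of 14 of 33 genes (42.4%), against 16.6% of all genes. The end of a CATTCC can be the first letters of a CArG box, so the motifs may overlap. A match is a run of letters and not evidence that a factor binds, and a window without one says nothing about the factor. The stretches printed here surround the box in 4 genes that are described further on for their lower level with TNF, and in Srf, whose window holds a second box. Lmod1, Cnn1, Mylk, Tpm2, Flnc, Myh9 and Myh10, also described there for a lower level with TNF, had windows without a box. Cnn2, Myl6, Ldb3 and Srf held a box and did not pass the tests described there. A relation between the box and the TNF change was not tested. Capitals mark the box, and each is read 5′ to 3′ on the gene's strand.
Fhl1: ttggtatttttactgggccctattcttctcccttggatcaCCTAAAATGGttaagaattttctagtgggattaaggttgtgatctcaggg
Fhl2: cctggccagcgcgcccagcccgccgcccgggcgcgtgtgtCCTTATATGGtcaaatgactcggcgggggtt
Myl9: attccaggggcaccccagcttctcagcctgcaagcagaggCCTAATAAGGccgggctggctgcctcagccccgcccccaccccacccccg
Vcl: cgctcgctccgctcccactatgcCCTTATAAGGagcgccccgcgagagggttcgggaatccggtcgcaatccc
Srf: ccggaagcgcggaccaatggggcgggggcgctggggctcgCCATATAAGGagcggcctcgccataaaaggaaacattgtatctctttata
These lie at chrX:56779541-56779630 on the plus strand, chr1:43163962-43164032 on the minus strand, chr2:156775263-156775352 and chr14:20929148-20929220 on the plus strand, and chr17:46556195-46556284 on the minus strand. The box ended 92 bases before a start of Fhl1, 21 before one of Fhl2, 151 before that of Myl9, 217 before that of Vcl and 72 before that of Srf. The second Srf box lies in the printed stretch in small letters and ended 52 bases before the start. The Fhl1 and Fhl2 starts with the printed boxes lie far inside the genes as the table bounds them, so each serves only some transcripts. Another start of Fhl2 had a different box, not printed here, that ended 86 bases before it.

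Library quality bears on several results. Normalized totals were 19.6 to 23.1 M per library, and the deposited table holds no counts, so the number of reads behind each value is unknown. All 10 markers of synoviocytes and fibroblasts were kept, with a summed level of 168670 to 463365, lowest in SoxC_KO_TNF replicate 3. Sox4 ran from 548 to 1433 in SoxC_KO against 1857 to 4238 in control, and from 601 to 1086 in SoxC_KO_TNF against 1625 to 3646 in control_TNF, lower in every knockout library. Sox11 and Sox12 overlapped without TNF. Sox11 was at 175, 157 and 26.8 in SoxC_KO and 269, 272 and 153 in control, and Sox12 at 230, 194 and 259 against 352, 342 and 162, so the library labelled SoxC_KO replicate 3 held more Sox12 than control replicate 3. With TNF both were lower in every knockout library. Some skeletal muscle transcripts stood out in SoxC_KO replicate 1 and SoxC_KO_TNF replicate 1. The muscle creatine kinase Ckm was at 59.1 and 95.3 there, against 4.45 or less elsewhere. The sum of the 10 skeletal muscle markers was 1387 and 1450 there but highest in SoxC_KO replicate 3, at 1544. The skeletal muscle actin Acta1 was at 1146 in that library, against 664 and 564 in the replicates numbered 1 just named. The 5 cardiac markers summed to 585 and 331 in SoxC_KO replicate 1 and SoxC_KO_TNF replicate 1, and to 158 or less in the others. The liver transcript Alb reached 2690 in SoxC_KO_TNF replicate 1 and 382 in control_TNF replicate 2, with 7.54 the highest value elsewhere. Pericyte markers, which share contractile genes with smooth muscle, summed to 1489 to 2652, and endothelial markers to 126 to 190. Macrophage markers summed to 3382 to 3930 in the 4 libraries numbered 3 and to 1341 to 2019 in the other 8. In bulk RNA, fewer cells of a type and less RNA per cell cannot be told apart.

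Replicate 3 stood apart in each of the 4 groups, and in these genes it did so by exon length, the union of a gene's annotated exons. Across the 37 genes, the difference between replicate 3 and the mean of replicates 1 and 2, averaged over groups, went down as exon length went up (Pearson r = -0.82, Spearman rho = -0.82, across genes that share the same libraries). Over the 18112 genes kept that had a length, r was -0.40 and rho -0.44. Lpp, an adhesion protein with 22.0 kb of exon, had a difference of -2.59 log2 units, and Vcl one of -1.62. Myl6, a light chain with 3.19 kb, was at 1.01. Fhl1 (0.07), Cnn1 (0.14) and Lmod1 (-0.18) lay near 0. Replicate 3 also had the highest macrophage sum and the lowest fibroblast sum of each group, with Lyz2, a macrophage lysozyme, at 2172 to 2438 against 677 to 1014 elsewhere. The collagen genes Col1a1 and Col1a2 made up most of the fibroblast sum, and other markers of that list differed from it. Thy1 and Pdpn were highest in replicate 3 of control, control_TNF and SoxC_KO, and lowest in that of SoxC_KO_TNF. The part of these markers in the difference was not tested. By library, levels were lower for longer genes in the 4 replicates numbered 3 (rho -0.51 to -0.78 across the 37 genes) and in control_TNF replicate 1 (rho -0.40), and higher in the other 7 (rho 0.52 to 0.81). The median residual SD of the 37 genes was 0.38 log2 units with group means removed and 0.24 once replicate number was removed too, against 0.46 and 0.28 over all genes kept. A second fit with replicate number as a block is therefore given where it changes a call.

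**Figure D1:**
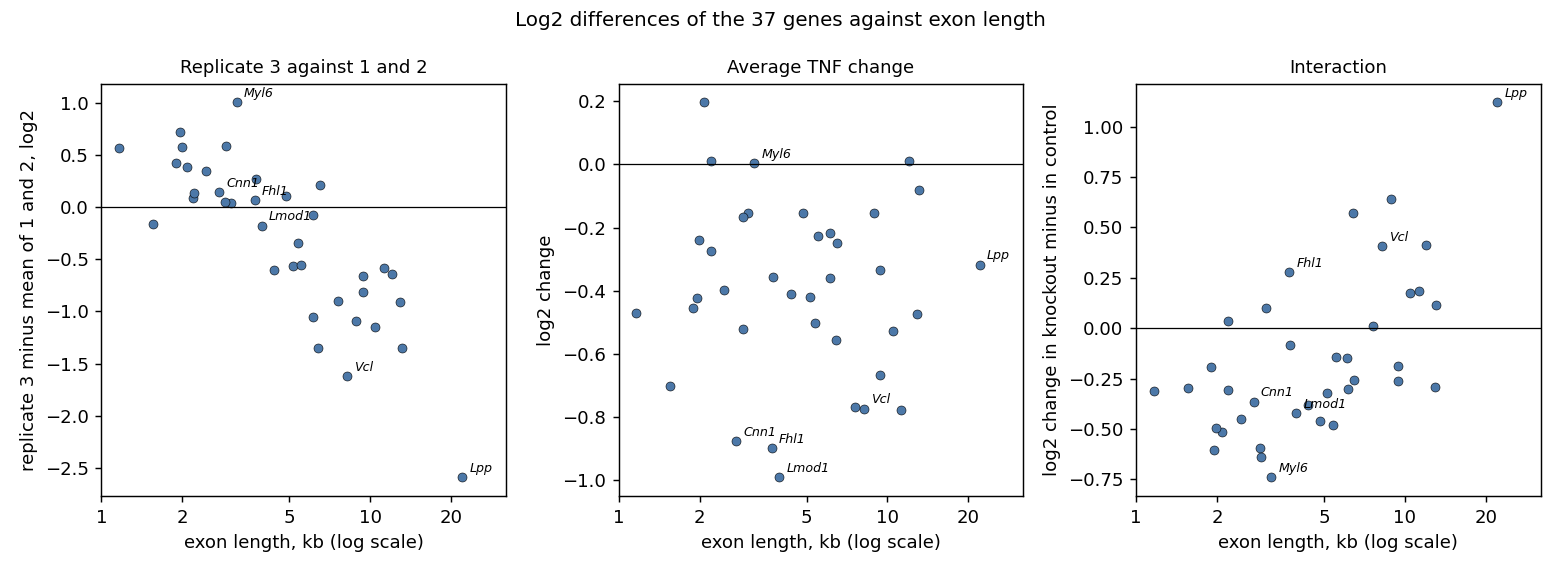
Log2 differences of the 37 genes (points) against exon length in kb on a log axis: replicate 3 minus the mean of replicates 1 and 2 (left), the average TNF change (middle) and the interaction (right). The left panel falls with length (r = -0.82), the middle one shows no such slope (r = -0.05) and the right one rises (r = 0.61).

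Levels of the set spanned 4 orders of size. Per kb of exon, Acta2, the smooth muscle actin, had the highest mean over the 12 libraries at 25240 normalized counts. Tpm4, a short tropomyosin of non-muscle cells, followed at 10530, then Tagln (9232), Csrp1 (8171) and Myl9 (7948). Of the heavy chains of myosin II, the non-muscle Myh9 was at 2569 per kb, far above Myh10 (142) and the smooth muscle Myh11 (78.8). Among calponins, Cnn2 (3526) and Cnn3 (2449) exceeded the smooth muscle form Cnn1 (1986). The intermediate filament gene Des was at 30.6 per kb, and Myocd (3.43) and Pdlim3 (2.52) were the lowest. By this measure the cells held much smooth muscle actin RNA and little RNA of myocardin, desmin and smooth muscle myosin. Acta2 and Actg2 code for nearly identical proteins, and how any reads that fit both were counted is unknown, so their levels are uncertain. Tagln shares 62.4% of its exon bases with a gene on the opposite strand (AC122273.1, 9985 to 24911 normalized counts). The sources used here do not say whether counting used strand, so the level of Tagln is uncertain. The same holds in part for Vcl (25.5% shared with Ap3m1), Cnn3 (17.7% with Gm42928) and Smtn (16.3% with Gm11946).

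**Figure D2:**
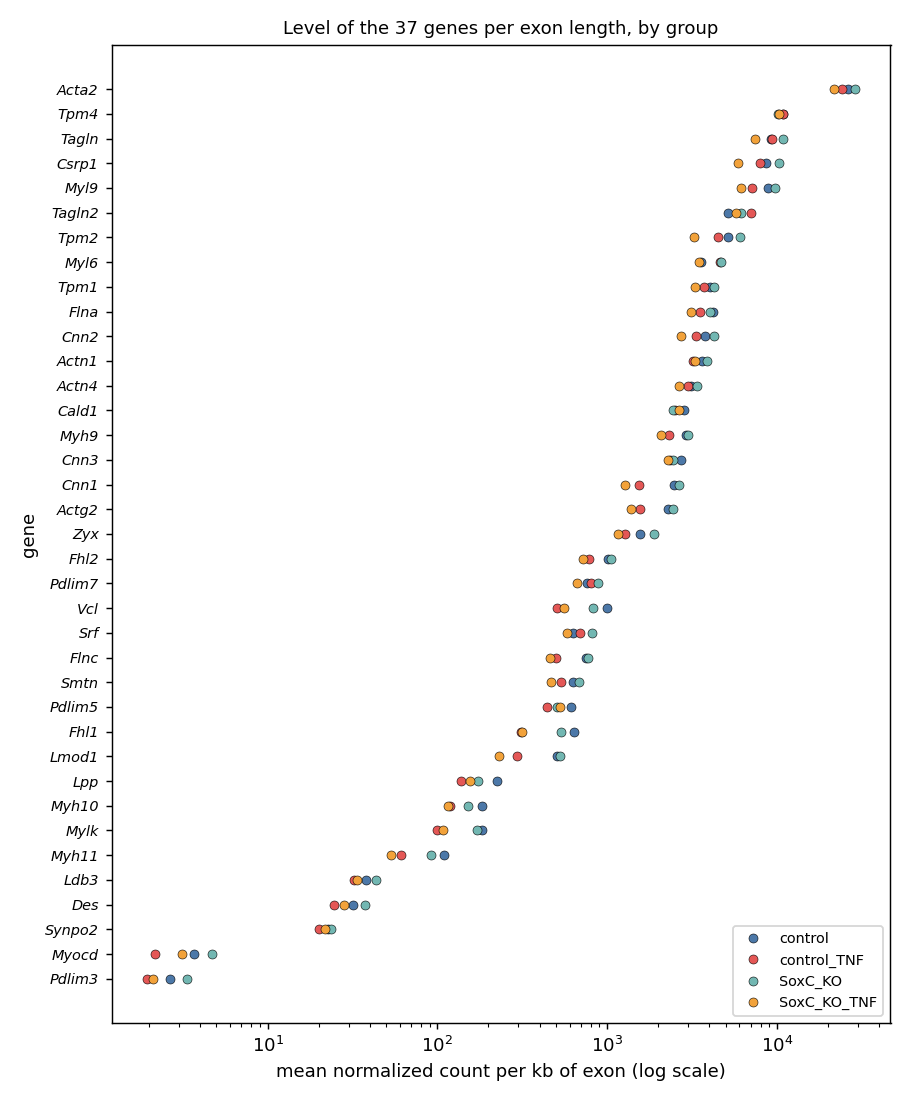
Mean normalized count per kb of exon (log axis) of each of the 37 genes in the 4 groups of 3 libraries (colours). Acta2 lies highest and Pdlim3 lowest, and the spread between genes is far wider than that between groups.

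TNF lowered a few genes of the set that are known from muscle. Taking control and knockout cells together, Lmod1, Fhl1 and Cnn1 fell to 0.503, 0.536 and 0.545 times the level without TNF, and no gene of the set was called higher. These are 3 of 37 genes called (limma, adjusted p under 0.05), where 0.292% of all genes tested were called lower. The 37 genes had a median log2 change of -0.40, with 33 of 37 below 0 (median -0.26 without SoxC_KO_TNF replicate 3), while all 18139 genes had a median of -0.0011 and 50.2% below 0. The set was chosen with earlier results of these data known, so its comparison with all genes is not independent of them. The set took 1.93% to 2.04% of the normalized total in the 6 libraries without TNF and 1.40% to 1.75% in the 6 with it. Groups did not overlap in both kinds of cell for 6 genes (Actg2, Cnn1, Cnn3, Fhl1, Lmod1 and Mylk, all lower with TNF), against 1.28% of all genes. All 6 same-numbered pairs were lower with TNF for 16 genes, against 5.33% of all genes. With replicate number as a block, limma called 12 genes lower and 0 higher, where 2.18% of all genes were called lower. The 12 were Lmod1, Fhl1, Cnn1, Mylk, Myh11, Vcl, Actg2, Fhl2, Flnc, Myh10, Myl9 and Myh9.

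**Figure D3:**
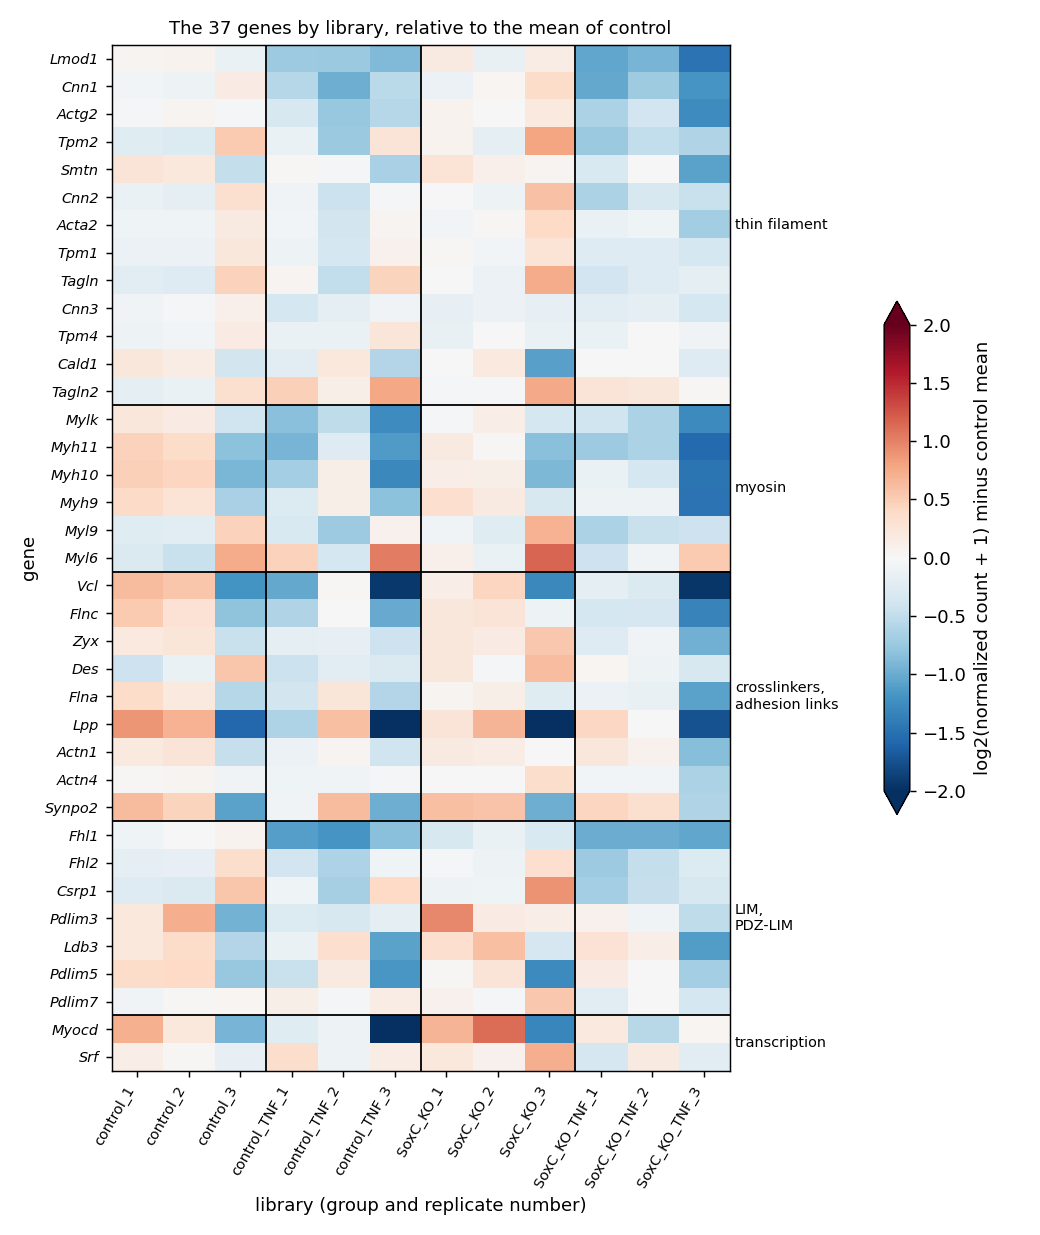
Each of the 37 genes (rows) in each of the 12 libraries (columns), as log2(normalized count + 1) minus the control mean (colour scale). Lmod1, Fhl1 and Cnn1 are lower in the 6 libraries with TNF, and the longest genes, such as Lpp and Vcl, are low in the libraries numbered 3.

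The 18 genes known best from smooth or striated muscle and the 19 expressed widely were described apart. Of the muscle genes, 18 of 18 were below 0 in the average TNF effect, with a median of -0.50, 3 called and 8 called with the block. Of the widely expressed genes, 15 of 19 were below 0, with a median of -0.23, 0 called and 4 called with the block (Myh9, Myh10, Vcl and Fhl2). Over all genes, 0.292% were called lower, and 2.18% with the block. At an unadjusted p under 0.05 limma gave 9 of the 18 muscle genes and 3 of the widely expressed ones (15.8%), against 8.17% of all genes. The difference between the lists was not tested, and the lists too were chosen with earlier results of these data known.

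Lmod1 (leiomodin, which nucleates actin filaments in smooth muscle; chr1:135324807-135368065) had the largest average TNF change of the set. It was at 2077, 2098 and 1807 normalized counts in control, 1208, 1186 and 1083 in control_TNF, 2248, 1795 and 2206 in SoxC_KO, and 972, 1045 and 718 in SoxC_KO_TNF. Every library with TNF lay below every library without it. Group means were 1994 ± 162, 1159 ± 66.9, 2083 ± 250 and 911 ± 172 (SD, n = 3 each). The average TNF change was -0.99 (SE 0.13, limma adjusted p = 0.00357). In knockout cells it fell by 1.20 (SE 0.19, limma adjusted p = 0.0229), and in control cells the change was -0.78 (SE 0.19, limma adjusted p = 0.229 without the block and 0.0212 with it). In knockout cells the call was lost without any 1 library of SoxC_KO or SoxC_KO_TNF, without control replicate 1 or 2, and without control_TNF replicate 1 (limma adjusted p = 0.0511 to 0.148).

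Cnn1 (calponin 1, a thin filament protein of smooth muscle; chr9:22099216-22109630) was at 6521, 6267 and 7526 in control, 4558, 3428 and 4643 in control_TNF, 6226, 6898 and 8693 in SoxC_KO, and 3334, 4129 and 2995 in SoxC_KO_TNF. The libraries with TNF again lay below all those without it. Group means were 6771 ± 666, 4209 ± 678, 7272 ± 1275 and 3486 ± 582 (SD, n = 3 each). The average change was -0.88 (SE 0.14, limma adjusted p = 0.0112). In knockout cells it was -1.06 (SE 0.20), which passed only with the block (limma adjusted p = 0.0729, and 0.00714 with it), and in control cells -0.69 (SE 0.20, adjusted p = 0.432, and 0.0811 with the block). The average call of Cnn1 was lost without the 2 libraries with liver transcripts (adjusted p = 0.0895) and without the 2 with skeletal muscle transcripts (adjusted p = 0.0822), while the changes were -0.79 and -0.92.

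Actg2 (enteric smooth muscle actin; chr6:83512905-83536265) was at 3463, 3676 and 3509 in control, 2829, 2100 and 2383 in control_TNF, 3714, 3569 and 4067 in SoxC_KO, and 2282, 2728 and 1482 in SoxC_KO_TNF. Groups with and without TNF did not overlap. The average change of -0.70 (SE 0.16) missed the threshold without the block (limma adjusted p = 0.069) and passed with it (adjusted p = 0.00951). Acta2, the related actin of vascular smooth muscle and myofibroblasts (chr19:34241090-34255336), was at 54144, 54245 and 64931 in control, 55308, 44849 and 59645 in control_TNF, 55318, 58336 and 76169 in SoxC_KO, and 52264, 54324 and 35588 in SoxC_KO_TNF. Control and control_TNF overlapped, and SoxC_KO_TNF lay below SoxC_KO. Its average change was -0.27 (SE 0.15, limma adjusted p = 0.754, and 0.38 with the block). The most abundant gene of the set per exon length therefore did not pass the test.

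Tagln (transgelin, an actin-binding protein; chr9:45929619-45936058) was at 15572, 14988 and 24740 in control, 18733, 12823 and 24462 in control_TNF, 17800, 16625 and 30014 in SoxC_KO, and 13741, 14969 and 15763 in SoxC_KO_TNF. Replicate 3 was the highest library of each group. The TNF change was 0.01 (SE 0.30) in control and -0.48 (SE 0.30) in knockout cells, neither called. SoxC_KO_TNF lay below SoxC_KO, and so it did for the antisense neighbour AC122273.1, at 11564 to 11926 against 13177 to 24911. Tpm2 (beta-tropomyosin; chr4:43514711-43523765) was at 12156, 11913 and 20826 in control, 13223, 8660 and 17320 in control_TNF, 15249, 12768 and 24985 in SoxC_KO, and 8646, 10263 and 9554 in SoxC_KO_TNF. Its change in knockout cells was -0.84 (SE 0.32, limma adjusted p = 0.531, and 0.0427 with the block), and in control cells -0.20. The remaining thin filament genes were Tagln2, Cnn2, Cnn3, Tpm1, Tpm4, Smtn and Cald1. Their average TNF changes ran from -0.41 for Smtn, a smooth muscle actin-binding protein, to 0.20 for Tagln2, a widely expressed transgelin, and none was called with or without the block.

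**Figure D4:**
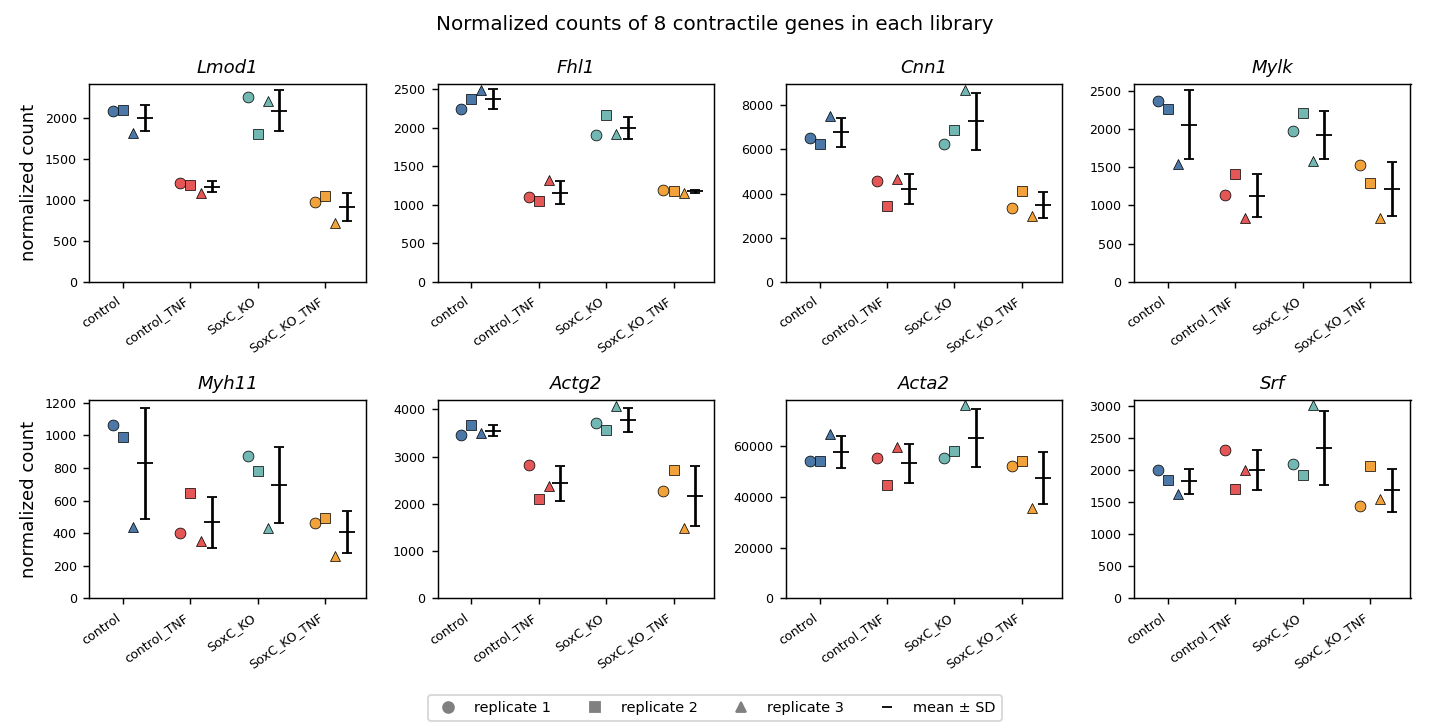
Normalized counts of 8 genes of the set in each library (symbols mark the replicate number; bars beside them, mean ± SD of 3 libraries). Lmod1, Fhl1, Cnn1 and Actg2 show no overlap between libraries with and without TNF, while control and control_TNF overlap for Acta2 and Srf.

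Among myosin genes, the kinase stood out. Mylk (myosin light chain kinase; chr16:34745210-35002420) was at 2369, 2256 and 1534 in control, 1133, 1412 and 839 in control_TNF, 1971, 2201 and 1583 in SoxC_KO, and 1522, 1298 and 833 in SoxC_KO_TNF. Each TNF group lay below its untreated group. The average change was -0.78 (SE 0.20, limma adjusted p = 0.122), with the block adjusted p = 0.000576. The block also brought it past the threshold in control cells (-0.87, limma adjusted p = 0.627 without and 0.00716 with it) and knockout cells (-0.69, adjusted p = 0.61 and 0.0245).

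The smooth muscle heavy chain Myh11 (chr16:14194527-14291408) was at 1060, 988 and 435 in control, 404, 644 and 349 in control_TNF, 874, 780 and 430 in SoxC_KO, and 463, 496 and 262 in SoxC_KO_TNF. Replicate 3 was the lowest library of each group, groups overlapped, and all 6 same-numbered pairs were lower with TNF. Its average change of -0.77 (SE 0.29, limma adjusted p = 0.435) passed with the block (adjusted p = 0.00505). The non-muscle heavy chain Myh9 (chr15:77760587-77842175) was at 46845, 43520 and 23080 in control, 29730, 39130 and 20420 in control_TNF, 45410, 40901 and 29026 in SoxC_KO, and 33637, 33813 and 13002 in SoxC_KO_TNF. Myh10 (chr11:68691559-68816632), the other non-muscle chain, was at 2445, 2377 and 934, then 1096, 1908 and 720, then 1933, 1909 and 943, and then 1597, 1372 and 636 in the same order of groups. Both overlapped between groups, with replicate 3 lowest throughout and every same-numbered pair lower with TNF. Average changes were -0.48 (SE 0.29) and -0.53 (SE 0.36), past the threshold only with the block (limma adjusted p = 0.0475 and 0.0347). With the block and without the 4 libraries numbered 3, Myh9 and Myh10 were not called. In control cells the largest fall of Myh11, Myh9 and Myh10 was between the replicates numbered 1. Control_TNF replicate 1 was a library with lower levels of longer genes (rho -0.40). The part of exon length in these changes was not tested.

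Myl9, the regulatory light chain of smooth muscle and non-muscle myosin (chr2:156775420-156781658), ran the other way by replicate. It was at 8450, 8603 and 13702 in control, 8061, 6032 and 10621 in control_TNF, 9530, 8442 and 16131 in SoxC_KO, and 6422, 7348 and 7481 in SoxC_KO_TNF, with replicate 3 highest. Its average change was -0.47 (SE 0.21, limma adjusted p = 0.582, and 0.0398 with the block). The essential light chain Myl6 had an average change of 0.0043 (SE 0.32) and was not called. In all, 0 of 6 myosin genes were called without the block and 5 with it, where 0.292% and 2.18% of all genes were called lower.

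Of the 9 crosslinker, adhesion and intermediate filament genes, 9 were below 0 in the average TNF effect, with a median of -0.33, 0 called and 2 called with the block. For all genes the shares called lower were 0.292%, and 2.18% with the block. Vcl (vinculin, which links actin to adhesions; chr14:20929398-21033676) was at 10926, 10376 and 3078 in control, 3454, 7128 and 1856 in control_TNF, 7756, 9501 and 2885 in SoxC_KO, and 6190, 5741 and 1823 in SoxC_KO_TNF. Replicate 3 was the lowest of each group, and groups overlapped. Its average change of -0.77 (SE 0.49, limma adjusted p = 0.902) passed with the block (adjusted p = 0.00564), and so did its change in control cells (-0.98, adjusted p = 0.998 without and 0.0246 with it). In control cells the largest fall was between the replicates numbered 1, from 10926 to 3454. Control_TNF replicate 1 was also a library with lower levels of longer genes (rho -0.40). With the block and without the 4 libraries numbered 3, Vcl was not called. The part of exon length in its change was not tested. Flnc, a filamin of striated muscle (chr6:29433256-29461883), was at 9442, 8032 and 3751, then 4354, 6527 and 3280, then 7674, 7834 and 6140, and then 5174, 5196 and 2614 in control, control_TNF, SoxC_KO and SoxC_KO_TNF. SoxC_KO_TNF lay below SoxC_KO, and control overlapped with control_TNF through its replicate 3. The average change was -0.67 (SE 0.27, limma adjusted p = 0.507, and 0.0137 with the block). With the block and without the 4 libraries numbered 3, Flnc was not called either. Its largest fall in control cells was also between the replicates numbered 1. Flna, the widely expressed filamin (chrX:74223461-74249820) and the most abundant of these 9, was at 49021, 43579 and 25741 in control, 29434, 44776 and 25226 in control_TNF, 39516, 41465 and 32206 in SoxC_KO, and 35089, 34314 and 18015 in SoxC_KO_TNF. Groups with and without TNF overlapped in both kinds of cell, and its average change of -0.33 (SE 0.23) was not called. The other 6 genes (Actn1, Actn4, Zyx, Lpp, Synpo2 and Des) had average changes from -0.50 for Zyx, a focal adhesion protein, to -0.08 for Synpo2, a Z-disc and stress fibre protein, none called.

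LIM domain genes held the call in control cells. Fhl1 (a protein of LIM domains abundant in muscle; chrX:56731787-56793346) was at 2246, 2381 and 2498 in control, 1105, 1051 and 1326 in control_TNF, 1910, 2167 and 1915 in SoxC_KO, and 1191, 1187 and 1151 in SoxC_KO_TNF. No library with TNF reached any library without it. Group means were 2375 ± 126, 1161 ± 146, 1998 ± 147 and 1176 ± 22.2 (SD, n = 3 each). The average change was -0.90 (SE 0.11, limma adjusted p = 0.00248). In control cells it fell by 1.04 (SE 0.16, limma adjusted p = 0.0248), and in knockout cells the change was -0.76 (SE 0.16, adjusted p = 0.102, and 0.00958 with the block). In control cells the call was lost without any 1 control library, without control_TNF replicate 1 or 2, without SoxC_KO replicate 1, and without SoxC_KO_TNF replicate 1 or 2 (limma adjusted p = 0.0596 to 0.167). Its relative Fhl2 (chr1:43123074-43196984) was at 1660, 1689 and 2419 in control, 1449, 1238 and 1790 in control_TNF, 1844, 1766 and 2391 in SoxC_KO, and 1149, 1363 and 1573 in SoxC_KO_TNF. Replicate 3 was highest in each group, and control overlapped with control_TNF. Its average change of -0.46 (SE 0.16, limma adjusted p = 0.354) passed with the block (adjusted p = 0.0121), as did its change in knockout cells (-0.55, adjusted p = 0.603 without and 0.0434 with it).

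Csrp1, a LIM protein of smooth muscle and the most abundant of its group (chr1:135720061-135752232), was at 13431, 13147 and 23742 in control, 15150, 10124 and 21266 in control_TNF, 15047, 15148 and 30102 in SoxC_KO, and 10014, 11655 and 12964 in SoxC_KO_TNF. SoxC_KO_TNF lay below SoxC_KO, and the groups of control cells overlapped. The changes were -0.12 (SE 0.35) in control and -0.73 (SE 0.35) in knockout cells, neither called with or without the block. The PDZ and LIM genes Pdlim3, Pdlim5, Pdlim7 and Ldb3 had average changes from -0.42 to -0.15, none called.

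The transcription factors of the set did not pass. Srf (serum response factor; chr17:46546839-46556162) was at 1997, 1849 and 1622 in control, 2314, 1697 and 2003 in control_TNF, 2094, 1925 and 3005 in SoxC_KO, and 1434, 2060 and 1555 in SoxC_KO_TNF. The groups overlapped, and the average change was -0.17 (SE 0.16), with a limma adjusted p of 0.665 under the block. Myocd (myocardin; chr11:65176561-65269989) was near the filter, at 35.9, 24.9 and 10.8 in control, 17.9, 19.8 and 3.95 in control_TNF, 34.9, 47.7 and 8.05 in SoxC_KO, and 24.6, 14.3 and 21.9 in SoxC_KO_TNF. Its change of -0.56 (SE 0.51) carried the largest error of this pair, on the log2(value + 1) scale that understates low genes.

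Counts by kind of cell were small. In control cells 1 of 37 genes (Fhl1) was called, where 0.0331% of all genes were called lower. With the block the count was 4 (Fhl1, Mylk, Lmod1 and Vcl), where 0.529% of all genes were. In knockout cells 1 of 37 (Lmod1) was called, against 0.0496% of all genes, and 7 with the block (Lmod1, Cnn1, Fhl1, Mylk, Actg2, Tpm2 and Fhl2), against 1.0%. With the block and without the 4 libraries numbered 3, limma called 1 gene in control cells (Fhl1; background 0.165%) and 1 in knockout cells (Lmod1; background 0.0937%). Groups did not overlap, with TNF lower, for 6 genes in control cells (background 4.11%) and for 19 in knockout cells (background 6.40%), and for 0 genes with TNF higher (background 4.60% and 6.43%). Median changes were -0.26 in control cells, with 32 of 37 below 0, and -0.47 in knockout cells, with 33 of 37 below 0. Without control replicate 3 the first median was -0.46. These counts do not show that the cells differ, since that difference has its own test.

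That test, the interaction, asks whether TNF changed a gene differently in knockout and control cells. None of the 37 genes passed it (limma smallest adjusted p = 0.884, 0 genes at an unadjusted p under 0.05; percent called over all genes 0). With the block the count was also 0, and 5 genes (13.5%) had an unadjusted p under 0.05 (Myl6, Tpm2, Pdlim5, Csrp1 and Lpp), a share below the 17.2% of all genes. For Lmod1 the difference was -0.42 (95% interval -1.01 to 0.17), for Fhl1 0.28 (-0.22 to 0.77) and for Cnn1 -0.36 (-0.99 to 0.26). The median over the set was -0.26, but it was 0.03 without the 4 libraries numbered 3 and -0.05 without SoxC_KO_TNF replicate 3 alone. The interaction also followed exon length across the 37 genes (r = 0.61, against 0.29 over all genes kept), from -0.74 for Myl6 to 1.12 for Lpp. The part of this length relation in the interaction was not tested. The average TNF effect had no such slope (r = -0.05), while the effects in control (r = -0.38) and knockout cells (r = 0.33) had slopes of opposite sign.

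**Figure D5:**
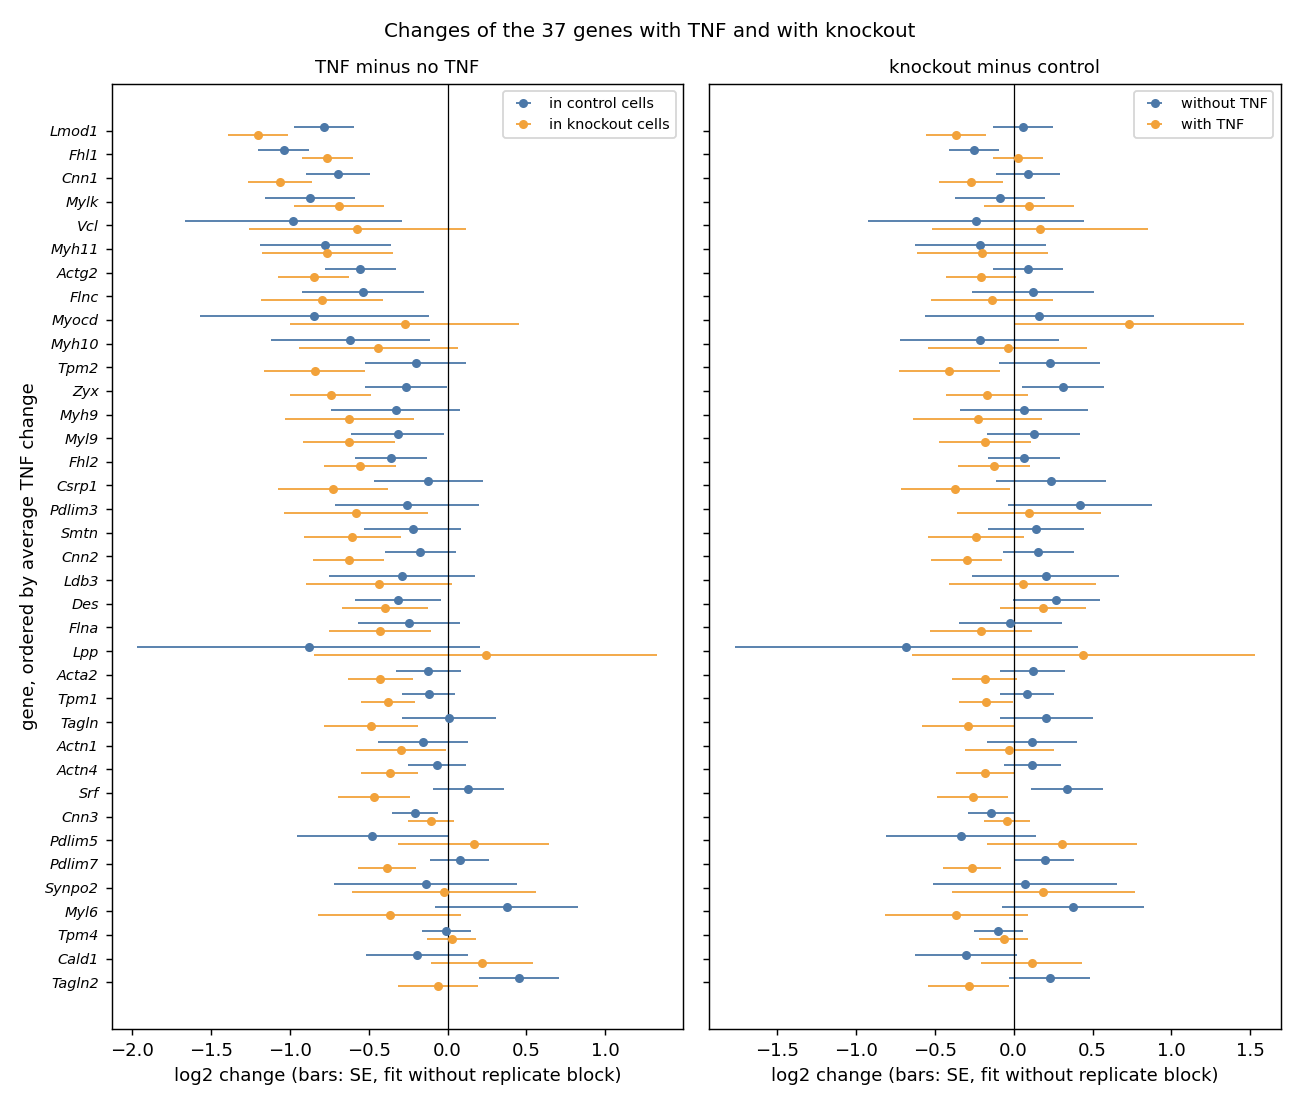
Log2 change with TNF in control and knockout cells (left) and with knockout without and with TNF (right) for each of the 37 genes, with SE bars from the fit without the block. TNF changes of Lmod1, Fhl1 and Cnn1 lie left of 0 in both kinds of cell, and knockout changes lie on both sides of 0 with wide bars for Lpp, Vcl and Myocd.

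Knockout alone changed no gene of the set past the threshold. Without TNF, 0 of 37 genes were called with or without the block (percent called over all genes 0). The smallest limma adjusted p was 0.999, and 0.653 with the block. At an unadjusted p under 0.05 there were 0 genes in either fit, against 0.970% of all genes without the block and 4.55% with it. With TNF, 0 of 37 were called (percent called 0, smallest limma adjusted p = 0.997). At an unadjusted p under 0.05 there were 0 genes without the block, against 1.28% of all genes. With the block there was 1, Lmod1 (2.70% of the set), a share below the 6.40% of all genes. The average knockout effect likewise called 0 of 37, with 0.00551% of all genes called with the block and 0 without. For 2 genes, Cnn3 and Fhl1, all SoxC_KO libraries lay below control (background 1.98%), and for 1, Lmod1, all SoxC_KO_TNF libraries lay below control_TNF (background 2.34%). For Fhl1 without TNF the knockout difference was -0.25 (95% interval -0.60 to 0.10), and for Lmod1 with TNF -0.36 (-0.78 to 0.05). For Acta2 it was 0.12 (-0.33 to 0.57) without TNF and -0.18 (-0.64 to 0.27) with it.

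The direction of the knockout medians rested on single libraries. The median was 0.11 without TNF, with 11 of 37 below 0, and -0.17 with TNF, with 26 below 0. Without control replicate 3 the former was -0.02, and without SoxC_KO_TNF replicate 3 the latter was 0.04. Without all 4 libraries numbered 3 they were 0.03 and -0.003. Both knockout effects also had a slope on exon length across the set, of r = -0.51 without TNF and r = 0.53 with it, and the part of this in the medians was not tested.

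Other genes of the actin cytoskeleton and its adhesions were read beside the set. Of 31 such genes kept, 0 were called in any comparison by limma without the block. With the block 1 fell in the average TNF effect: Tns1, which ties integrins to actin, at -0.47 (SE 0.12 with the block, limma adjusted p = 0.0470), which is 1 of 31 where 2.18% of all genes were called lower. Their median average change was -0.04, with 18 of 31 below 0. The cytoplasmic actins Actb and Actg1 had average changes of -0.20 (SE 0.13) and -0.18 (SE 0.13), and the Srf coactivators Mkl1 and Mkl2 of -0.14 (SE 0.22) and -0.21 (SE 0.51), none called. Neither the contrast between these genes and the 37 nor that between cytoplasmic and smooth muscle actins was tested.

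The average TNF calls were repeated without the libraries in doubt. Lmod1 and Fhl1 were called in every one of these fits. Without the 4 libraries numbered 3, limma called 8 of 37 genes lower, with 1.31% of all genes called lower: Lmod1, Fhl1, Cnn1, Mylk, Myh11, Actg2, Flnc and Zyx. Without them and with the block, 5 were called (Lmod1, Fhl1, Cnn1, Mylk and Myh11; background 0.932%). Without the 2 libraries with liver transcripts, and without the 2 with skeletal muscle transcripts, 2 were called each time, Lmod1 and Fhl1 (background 0.110% and 0.0717%). The summed level of the 10 skeletal muscle markers, 7 of them kept, was 783 to 1544 in SoxC_KO and 525 to 1450 in SoxC_KO_TNF, and 878 to 1097 in control against 513 to 715 in control_TNF, with Acta1 its largest part. Acta1, the skeletal muscle actin, was at 546 to 1146 in the 6 libraries without TNF and 280 to 564 in those with it. Other markers of the list differed in direction. Mean Mylpf was 42.2 in control and 52.8 in control_TNF, and 66.4 in SoxC_KO and 68.1 in SoxC_KO_TNF. Mean Actn3 was 146, 128, 175 and 129 in the same order. The part of other cell types in the lower level of the contractile genes was not tested.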

How the data were processed

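RNA was measured in 12 libraries, 3 in each of 4 groups, and groups and replicate numbers came from sample titles. The deposited table holds log2 normalized values, 1 per gene and library, per the file headers. The submitters' processing notes name the build mm10 and DESeq. The sources used here do not name the aligner, the annotation or the strand setting. The plan had assumed linear values, so each deposited value was taken as an exponent of 2, with 0 left at 0, and then analysed as log2(normalized count + 1). Genes with at least 10 in at least 3 libraries were kept. limma 3.58.1 in R 4.3.3 was fitted with 1 mean per group, an intensity trend and Benjamini-Hochberg adjustment over 18139 genes (threshold 0.05), and was tested on simulated data. Figures used Python 3.11.15 and matplotlib 3.10.9. Exon lengths and overlaps came from GENCODE annotation of the same build, as the union of exons, and promoters from RefSeq.

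The 37 genes and all lists were chosen with earlier results of these data known. Values per library are given for genes called in any comparison with or without the block, the 4 largest average TNF changes, the most abundant gene of each role, and Acta2, Tagln, Cnn1, Myh11, Myocd and Srf. Related genes named are those called, and Actb, Actg1, Mkl1 and Mkl2. Pairing by replicate number was checked from the numbers in the titles. After group means were removed, r was 0.103, 0.550 and 0.715 for control with control_TNF, 0.340, 0.148 and 0.501 for SoxC_KO with SoxC_KO_TNF, and 0.457, 0.515 and 0.707 for control with SoxC_KO, all over the cutoff of 0.1. It was 0.0537, 0.189 and 0.526 for control_TNF with SoxC_KO_TNF, which was not read as paired. The block was still fitted to all 4 groups at once. All its results therefore rest in part on a pairing that did not pass this check. This bears most directly on knockout with TNF, the average knockout effect and the interaction. Replicate 3 stood apart in all 4 groups, and this alone raises these correlations. Alternatives were the pseudocount, filter, scaling, trend, block, groups fitted and each library left out.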

Additional observations from a re-analysis of the deposited data

How the results depend on the processing

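The counts of genes called in the TNF comparisons depended most on the processing. In control cells the count of 1 became 0 with only the groups compared in the fit, 4 with the replicate block, 3 without the 4 libraries numbered 3, 0 without the 2 libraries with liver transcripts and 0 without the 2 with skeletal muscle transcripts, and it ranged from 0 to 1 when each library was left out. In knockout cells the count of 1 became 0, 7, 2, 0 and 0 in the same order, with a range of 0 to 1. For the average TNF effect the count of 3 became 12 with the block, 8 without the libraries numbered 3 and 5 with both. All genes called went from 212 to 941, 653 and 506 in that order. The count of the set was 3 each time a single library was left out, and Lmod1, Fhl1 and Cnn1 were then always the genes called. With single libraries left out, the median change of the 37 genes ranged from -0.46 to -0.21 for TNF in control cells, from -0.44 to -0.26 for the average TNF effect and from -0.081 to 0.064 for the average knockout effect. The pseudocount, filter, scaling and trend changed none of the 7 counts by over 1.5 times. The other 298 alternative values of counts and medians moved by less than those limits, against 32 that moved, and no call changed sign. Fits without libraries numbered 3 or with liver or muscle transcripts were chosen after seeing the data. With the block and without the libraries numbered 3, both counts by kind of cell were 1. The replicate block changed no other call than those named in the text. Depth is unknown, which limits the lowest genes, Myocd and Pdlim3. With a library left out, its group's other 2 were assumed to vary like the other groups.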
